A study of Mus musculus with 7 samples.

Results

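The Sox2 gene desert is the stretch of mouse chromosome 3 between Dnajc19 and Atp11b that holds Sox2 as its only protein-coding gene. It was divided into 1 kb bins from 33981001 to 35653000 of the mm9 build, which gave 1672 bins, out of 156394 bins of chromosome 3 with known sequence (154722 of them outside the desert). The bins were cut by position, in a locus whose H3K27ac the study had already described and with earlier results of these data known. From them 2 groups were set apart. The first was 14 bins that touch the interval deleted in the study, chr3:34652343-34665304, which is 12962 bp long and begins 103 kb 3′ of the Sox2 start. The second was 4 bins that touch Sox2 itself (chr3:34548927-34551383). The remaining 1654 bins make up the rest of the desert.

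Sox2 encodes an HMG-box transcription factor that keeps embryonic stem cells pluripotent and is also used in the nervous system. Genes of this kind often sit alone in long deserts whose sequence holds their enhancers. H3K27ac is a histone mark of active enhancers and promoters, H3K4me3 marks active promoters, and a cluster of strongly marked enhancers is called a super-enhancer. Active enhancers are often transcribed at a low level, and long non-coding RNAs can start within or beside them.

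The study deleted the distal Sox2 super-enhancer with CRISPR in F123 cells, a mouse embryonic stem cell line from a 129 and CAST hybrid. It deposited 7 libraries, 1 for each condition: H3K27ac and H3K4me3 in undeleted F123 cells, H3K27ac in J1 (a 129 embryonic stem cell line), and strand-specific RNA of undeleted F123 cells (wild type), of cells deleted on the 129 allele, on the CAST allele, and on both alleles. With 1 library a condition there was no replicate error and no test, so the intervals given here are exact 95% intervals of counting error only, and a difference between libraries cannot be told apart from a difference between clones or preparations. The deletion lines were clonal, the cells recovered on mouse embryonic fibroblast feeders and were taken off feeders before harvest, and no ChIP-seq of a deletion line was used here. The labels give total RNA and the study's methods describe polyA+ capture from it, so the intergenic values may leave out RNA without polyA tails.

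Depth, meaning here the number of distinct alignments, set what could be seen. The H3K27ac library of F123 held 1576875 distinct alignments, that of J1 7743500, and the H3K4me3 library 7108751. Behind them stood 8047321, 81285265 and 9007794 reads, and 20.5%, 32.2% and 82.4% of the alignments rested on 1 read. The mean over chromosome 3 was 0.488 alignments per kb in F123 H3K27ac, 2.43 in J1 H3K27ac and 2.46 in H3K4me3. The RNA libraries fell from 24891865 alignments on annotated exons in wild type to 12486419 (129 allele deleted), 6078921 (CAST allele deleted) and 5847445 (both alleles deleted). All 7 embryonic stem cell markers were detected in every RNA library, with a summed level per length of 1054 to 1472 FPKM. In wild type and with the 129, CAST and both alleles deleted, Nanog stood at 130, 115, 76.2 and 38.7 FPKM. Esrrb stood at 89.8, 51.2, 31.3 and 21.3, Zfp42 at 185, 165, 101 and 52.2 and Tdgf1 at 208, 176, 176 and 153. The others did not fall steadily: Pou5f1 at 188, 131, 206 and 163, Utf1 at 211, 275, 226 and 148, and Dppa5a at 461, 529, 545 and 478. The 7 fibroblast markers, which feeder cells express, summed to 16.6 FPKM in wild type (Lum at 0), 67.1 and 69.5 in the single deletions and 367 with both alleles deleted. Of these, Thy1 went another way, at 11.4, 5.68, 6.26 and 27.6 FPKM, while Col1a1 stood at 3.47, 38.9, 38.8 and 174. Their part in the RNA results was not tested.

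The ends of the deleted interval and 7 stretches inside and outside it carry the patterns described here, and their mm9 plus-strand sequences are shown first. At the ends, capitals mark the deleted bases.
5′ end, chr3:34652313-34652372: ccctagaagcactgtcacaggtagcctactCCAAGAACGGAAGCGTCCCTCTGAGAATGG
3′ end, chr3:34665275-34665334: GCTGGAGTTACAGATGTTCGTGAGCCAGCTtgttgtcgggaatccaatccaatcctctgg
Inside the interval, the 4 windows that hold neighbouring matches to the searched motifs are shown, with capitals for the matches. The first and second windows hold an Esrrb match followed by a Sox match, the third a Klf and an Esrrb match, and the fourth a pair of Sox matches on opposite strands, 1 base apart.
Window 1, chr3:34655397-34655696: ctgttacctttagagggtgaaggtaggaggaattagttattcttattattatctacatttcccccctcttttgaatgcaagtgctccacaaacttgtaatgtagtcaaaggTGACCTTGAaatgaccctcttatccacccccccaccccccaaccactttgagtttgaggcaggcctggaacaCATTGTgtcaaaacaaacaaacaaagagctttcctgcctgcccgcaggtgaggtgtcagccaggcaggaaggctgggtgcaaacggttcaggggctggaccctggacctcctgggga
Window 2, chr3:34656793-34657092: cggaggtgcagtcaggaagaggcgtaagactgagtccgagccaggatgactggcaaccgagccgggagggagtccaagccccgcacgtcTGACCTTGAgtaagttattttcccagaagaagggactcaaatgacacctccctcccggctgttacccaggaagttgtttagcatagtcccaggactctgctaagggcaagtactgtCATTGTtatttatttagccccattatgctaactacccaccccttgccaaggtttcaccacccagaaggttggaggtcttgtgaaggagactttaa
Window 3, chr3:34659220-34659519: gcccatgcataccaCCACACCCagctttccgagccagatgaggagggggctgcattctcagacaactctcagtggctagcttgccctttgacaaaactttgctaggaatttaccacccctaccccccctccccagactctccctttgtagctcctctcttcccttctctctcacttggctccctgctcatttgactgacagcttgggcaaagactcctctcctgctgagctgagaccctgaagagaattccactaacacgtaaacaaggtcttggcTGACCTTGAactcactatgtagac
Window 4, chr3:34663934-34664233: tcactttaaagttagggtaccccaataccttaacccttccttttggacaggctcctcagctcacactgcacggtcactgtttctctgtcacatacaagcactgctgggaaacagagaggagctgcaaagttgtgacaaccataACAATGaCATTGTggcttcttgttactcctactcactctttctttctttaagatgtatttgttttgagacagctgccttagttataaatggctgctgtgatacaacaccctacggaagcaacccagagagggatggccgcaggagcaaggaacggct
The Atp11b side of the desert held a further strong H3K27ac domain, and the stretch around its only Esrrb match follows.
Atp11b side, chr3:35618868-35619067: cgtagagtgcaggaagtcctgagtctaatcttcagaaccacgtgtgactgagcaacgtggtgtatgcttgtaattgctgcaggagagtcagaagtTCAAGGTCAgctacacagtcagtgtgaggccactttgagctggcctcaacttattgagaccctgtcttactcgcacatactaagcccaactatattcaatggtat
The 250 bases before the RefSeq starts of Sox2 and of the long non-coding RNA Gm38509 (also called Peril) are shown because RNA begins or crosses there. RefSeq promoter sequences were placed on mm9 by exact match, with capitals again for motif matches.
Sox2, chr3:34548667-34548916: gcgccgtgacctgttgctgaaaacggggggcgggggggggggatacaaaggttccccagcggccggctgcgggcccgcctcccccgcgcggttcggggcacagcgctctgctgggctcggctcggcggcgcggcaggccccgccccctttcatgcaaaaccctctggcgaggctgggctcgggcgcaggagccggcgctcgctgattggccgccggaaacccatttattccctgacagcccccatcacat
Gm38509, chr3:34670747-34670996: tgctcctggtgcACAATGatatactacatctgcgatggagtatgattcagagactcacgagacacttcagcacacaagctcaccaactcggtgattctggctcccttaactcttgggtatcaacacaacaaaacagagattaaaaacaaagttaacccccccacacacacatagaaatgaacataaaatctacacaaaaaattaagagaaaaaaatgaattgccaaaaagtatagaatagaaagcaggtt

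H3K27ac was concentrated in 3 places of the desert, around Sox2, in the deleted interval, and close to Atp11b. A bin was called when its count exceeded 5 times the chromosome 3 mean of its library. In F123, 7.36% of the 1672 bins were called (105 in the rest of the desert, and all 14 and 4 bins set apart), against 2.75% of the bins of chromosome 3 outside the desert and 1.17% of those more than 10 kb from any annotated gene. In J1, 77 bins were called (4.61%), against 1.86% and 0.65%. Both lines called 66 bins, against 1.37% of outside bins and 0.442% of those far from genes.

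**Figure D1:**
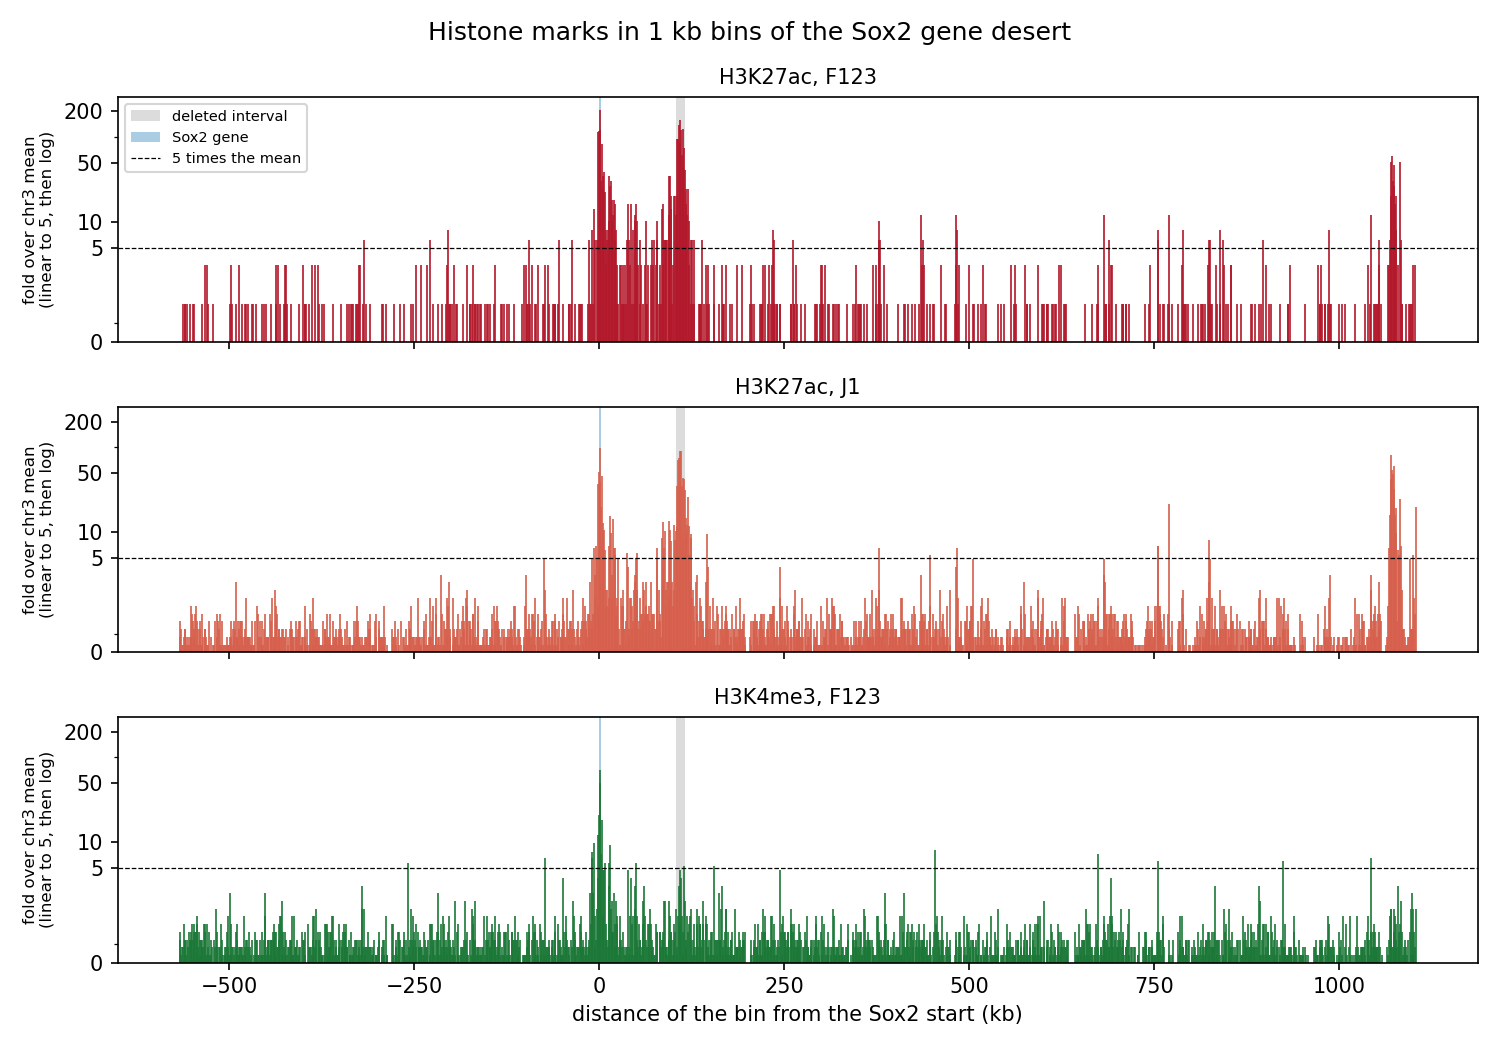
Fold of H3K27ac in F123 and J1 and of H3K4me3 in F123 over the chromosome 3 mean in each of the 1672 bins, by distance from the Sox2 start in kb; the vertical axis is linear up to 5 and logarithmic above, and the dashed line is 5 times the mean. Tall H3K27ac bins stand at Sox2, in the deleted interval and at about 1070 kb, while H3K4me3 stands high at Sox2.

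The threshold meant different counts in the 3 libraries. A bin was called from 3 alignments in F123 H3K27ac, where 3 alignments are 6.15 times the mean with an interval of 1.27 to 18.0, and from 13 in both other libraries. Just outside the threshold, 101 bins of the rest of the desert held 2 alignments in F123, and 40 held 3. In J1, 11 held 12 and 5 held 13, and in H3K4me3, 4 held 12 and 1 held 13. At 3 alignments the interval of an F123 bin reaches close to the mean.

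The study found this super-enhancer by its H3K27ac in embryonic stem cells and then deleted all of it. High values in the interval, and lower ones beside it, thus follow in part from that choice. All 14 bins of the deleted interval were called for H3K27ac in both lines. The whole interval held 522 alignments in F123, or 82.6 times the mean (75.6 to 89.95), and 1408 in J1, or 44.7 times (42.4 to 47.1). Its 14 bins took 25.5% of all H3K27ac alignments of the desert in F123 and 16.8% in J1, in 0.837% of its bins. H3K4me3 stood at 2.66 times the mean (2.13 to 3.29), and 1 of the 14 bins was called, 34663001, at 5.28.

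Within the interval the mark had several rises and troughs. In F123 the bins from 34652001 to 34657001 stood at 12.3, 20.5, 94.3, 94.3, 137 and 86.1 times the mean, and those from 34658001 to 34660001 at 160, 121 and 61.5, after which 34661001 was back at the level of 34659001 (60 alignments against 59). In J1 the same bins stood at 10.3, 11.5, 35.0, 69.9, 74.02 and 36.6, and those from 34658001 to 34661001 at 89.2, 90.5, 35.4 and 44.0. Both profiles thus had a first rise at 34656001, a trough at 34657001, a second rise at 34658001 to 34659001, another trough at 34660001 and a further rise at 34661001, small in J1. The bin 34662001 was low in J1 (8.22) and less so in F123 (45.1). It was also the least mappable of the interval, with 59.7% of its 32-base windows unique in mm9 (the other bins had 85.6% or more). The trough bins 34660001 and 34657001 came next, at 85.6% and 87.6%, while the bins beside them had 93.4% to 99.3%. The part of mappability in the troughs was not tested. The bins 34663001 to 34665001 fell from 73.8 to 41.0 and 16.4 in F123, and from 42.8 to 31.3 and 14.8 in J1.

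**Figure D2:**
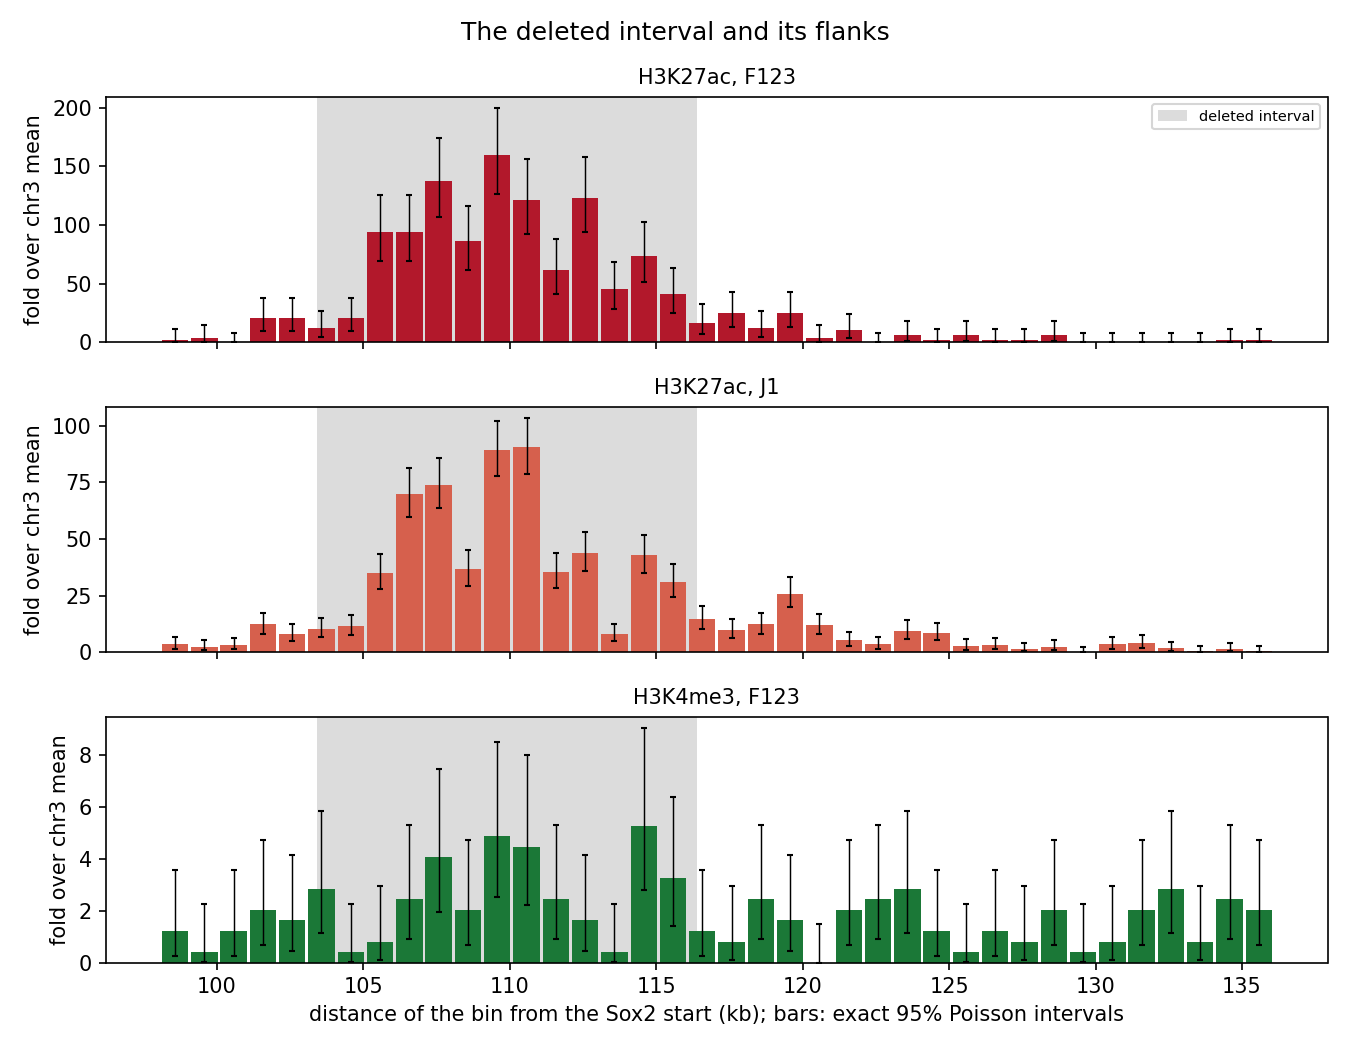
Fold over the chromosome 3 mean of the 3 ChIP-seq libraries in the 1 kb bins around the deleted interval (grey), by distance from the Sox2 start in kb, with exact 95% Poisson intervals as error bars. H3K27ac peaks at 160 times the mean in F123 and 90.5 times in J1, both inside the interval, while H3K4me3 stays below 6.

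The windows printed above did not share one pattern of the mark. In J1, window 1 held 22 alignment starts, against 87 and 36 in the 300 bases before and after it, and window 2 held 21, against 63 and 43. In F123 window 1 held 5, against 21 and 10, and window 2 held 16, against 23 and 20. Both windows thus held fewer starts than either neighbour in both lines, as did window 3, with 55 against 63 and 78 in J1 and 12 against 20 and 17 in F123. Window 4 held 39 against 31 and 21 in J1 and 11 against 15 and 7 in F123. The Atp11b side window, with its Esrrb match, held 41 in J1 against 27 and 32, and 4 in F123 against 1 and 5. The Sox2 promoter window held 4 starts in 250 bases in J1, against 37 and 39 beside it, and 3 in F123, against 22 and 14.

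The called bins of the rest of the desert, 105 in F123 and 59 in J1, were in large part neighbours of Sox2 and of the deleted interval. Between Sox2 and the interval, 48 of 100 bins were called in F123 and 24 in J1, and that section stood at 8.94 times the mean (8.12 to 9.82) and 4.48 times (4.22 to 4.76). The 567 bins 5′ of Sox2 stood at 0.983 times (0.870 to 1.11) and 1.11 times (1.06 to 1.17), with 13 and 3 bins called. The 987 bins 3′ of the interval stood at 1.27 times (1.17 to 1.37) and 1.67 times (1.62 to 1.73), with 44 and 32 called. The longest run without a called bin in either line was 249 bins, from 33981001 to 34230000, next to Dnajc19.

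As the deleted interval was drawn around this mark, H3K27ac was lower on both sides of it than within it. In the 10 kb on its 5′ side the mark stood at 16.4 times the mean (13.0 to 20.4) in F123 and 7.07 times (6.06 to 8.21) in J1, and in the 10 kb on its 3′ side at 10.5 times (7.78 to 13.7) and 10.2 times (8.93 to 11.5). From 10 to 25 kb the 5′ side kept 5.33 and 4.61 times the mean, whereas the 3′ side held 1.64 and 2.001. From 50 to 100 kb the 5′ side, which reaches the cluster beside Sox2, stood at 10.99 times (9.71 to 12.4) and 4.76 times (4.38 to 5.17), and the 3′ side at 0.615 (0.344 to 1.01) and 1.11 (0.931 to 1.31), at or near the mean. This flanking mark lies in sequence that the deletion left in place.

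Called bins were joined into clusters across gaps of up to 2 kb, with the bins of Sox2 and of the deleted interval left out, which gave 37 clusters in F123 and 19 in J1. Of these, 21 and 9 were single bins. The 2 clusters with the highest F123 bin flanked Sox2. The 5′ one, 34538001 to 34548000 in the Sox2ot gene body, peaked at 115 times the mean in F123 and 37.0 in J1 in bin 34547001, just before the promoter. The 3′ one, 34552001 to 34572000, peaked at 84.0 and 46.1 in its first bin, 34552001, and had 19 of its 20 bins called in F123. Sox2ot is a long non-coding RNA gene on the same strand whose body surrounds Sox2, and 579 bins of the desert touch it.

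A line of weaker clusters joined this domain to the deleted interval. The cluster at 34586001 to 34600000 peaked at 16.4 times the mean in F123 and 5.76 in J1. The cluster at 34633001 to 34647000, 14 bins long, peaked at 34.8 and 13.6 in bin 34643001. The bins 34650001 and 34651001, directly before the deleted bases, both stood at 20.5 in F123, and at 12.3 and 8.22 in J1. On the other side, the cluster at 34666001 to 34678000 reached 24.6 in F123 (in bins 34666001 and 34668001) and 25.9 in J1 (in bin 34668001). Both remaining clusters of the 10 with the highest F123 bins, 34983001 to 34987000 and 35030001 to 35033000, rested on 6 alignments in their top bin (12.3 times the mean, 4.51 to 26.8). The single bins 35231001, 35318001 and 35592001 tied with them, and 35318001 held 53 alignments in J1 (21.8 times the mean, 16.3 to 28.5).

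The domain on the Atp11b side held the most J1 alignments of any cluster outside Sox2 and the deleted interval. Its J1 cluster ran from 35616001 to 35633000, beginning 1067 kb 3′ of the Sox2 start and 951 kb past the deleted interval, with 15 of its 17 bins called. It held 1061 alignments in J1, 25.7 times the mean (24.1 to 27.3), and 172 in F123, 20.7 times (17.8 to 24.1). The highest bin in J1 was 35619001, at 80.6 (51.2 in F123), and in F123 it was 35620001, at 59.4 (54.7 in J1). A separate peak in bin 35631001 reached 51.2 in F123 and 24.7 in J1. H3K4me3 over the domain was at 2.01 times the mean, and no GENCODE M1 gene lies there.

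The balance between the domains differed between the lines by more than counting error. The Atp11b side domain held 0.325 alignments for each alignment of the deleted bins in F123 (0.272 to 0.386) and 0.735 in J1 (0.679 to 0.796). For the Sox2 bins the ratio was 0.442 (0.377 to 0.516) in F123 and 0.349 (0.314 to 0.386) in J1. Each line is 1 library, and line, depth and preparation cannot be told apart.

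**Figure D3:**
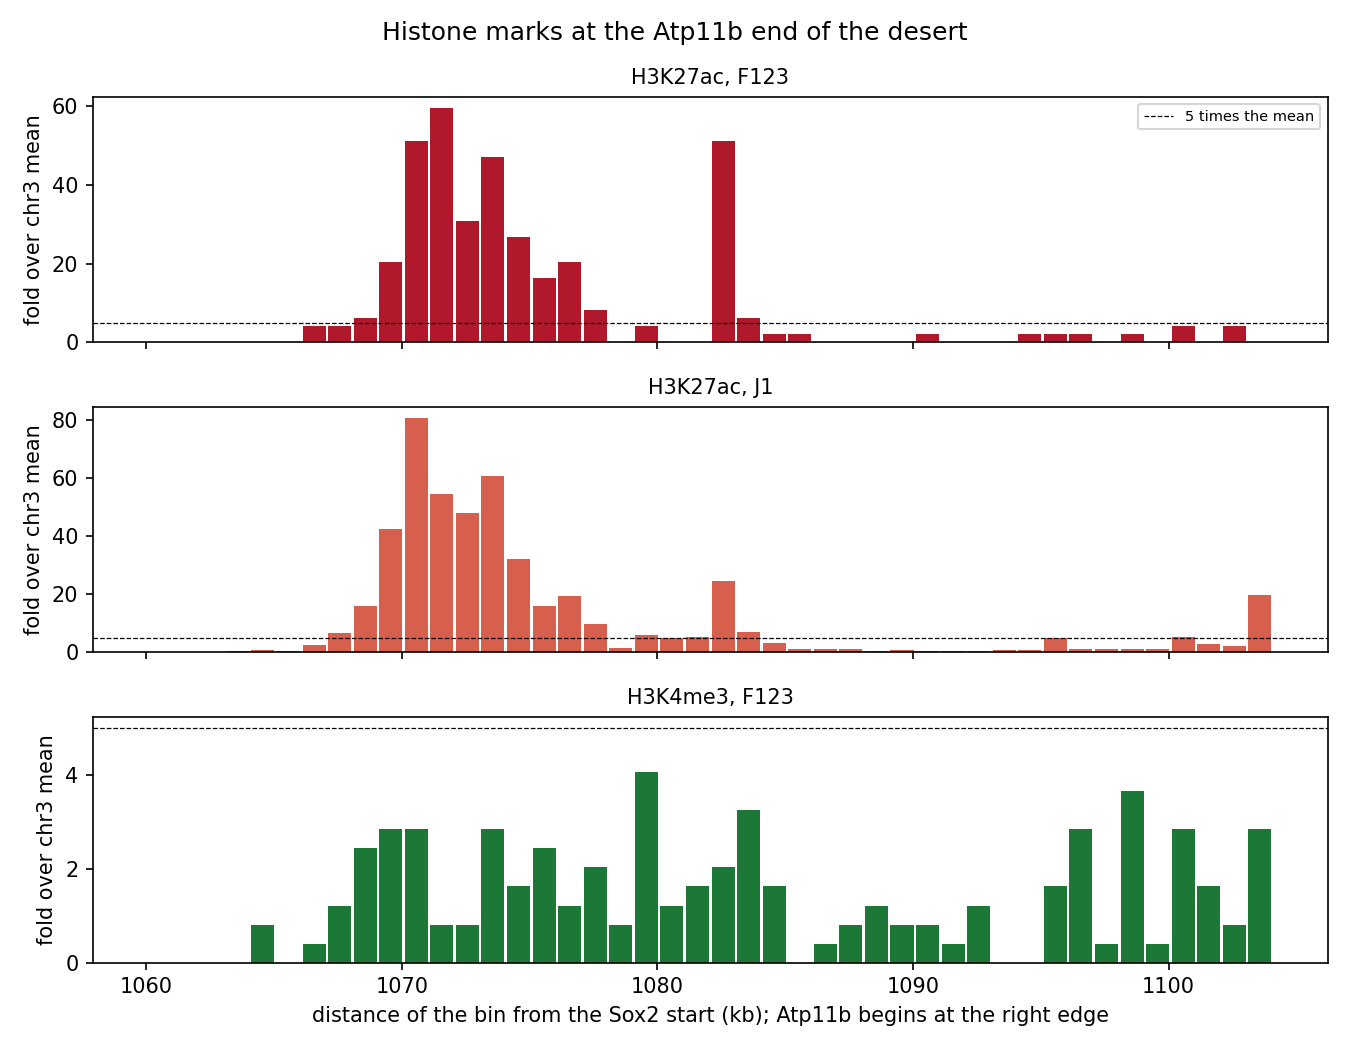
Fold over the chromosome 3 mean of the 3 ChIP-seq libraries in the 1 kb bins of the Atp11b end of the desert, by distance from the Sox2 start in kb, with the dashed line at 5 times the mean. H3K27ac reaches 59.4 in F123 and 80.6 in J1 near 1070 kb, H3K4me3 stays below 5, and in the last bin J1 alone is called.

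Bins called in one line were often not called in the other, and depth moved with this. Of the 105 F123 bins in the rest of the desert, 48 were also called in J1 (45.7%, exact binomial interval 35.96 to 55.7). The same 48 were 81.4% of the 59 J1 bins (69.1 to 90.3). Outside the desert the 2123 shared bins were 49.8% of the F123 bins and 73.9% of the J1 bins, so the overlap was similar there. Among F123 bins with 3 alignments 9 of 40 were called in J1, among those with 4 it was 3 of 13, and among those with 10 or more it was 23 of 24. Among the 11 bins called in J1 alone, the highest count was in 35652001, which holds the RefSeq start of Atp11b, with 48 alignments in J1 (19.7 times) and none in F123, where a count of 0 allows up to 3 alignments as a one-sided limit. That start, at 35652985, lies at the end of this last bin of the desert. Sequence past 35653000 was not counted, so the bin covers only part of the promoter region. Across the 1654 bins the counts of the lines correlated with Pearson r of 0.765 and Spearman rho of 0.346, which is a description, since neighbouring bins share domains and mappability.

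H3K4me3 was highest at Sox2. In all, 22 bins were called (1.32%), against 1.11% of bins outside the desert and 0.208% of those far from genes. The 4 Sox2 bins stood at 20.7, 71.5, 49.6 and 7.31 times the mean, from 34548001 to 34551001, and the next bin at 18.3. Of the rest of the desert 17 bins were called (1.03%), a share near that of chromosome 3 as a whole.

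These 17 bins formed 14 clusters, 12 of them single bins. Those with the highest folds adjoined Sox2: 34552001 at 18.3, 34547001 at 12.2, the run from 34538001 to 34542000 with a top of 9.75, and 34562001 to 34564000 with a top of 9.34. Bins 34556001 and 34598001 both stood at 5.69. Farther away stood 35002001 at 8.13, 35222001 at 7.31, 34475001 and 35592001 at 6.50, 35304001 and 35473001 at 6.09, 34290001 at 5.69 and 34704001 at 5.28, each on 13 to 20 alignments. Of these 8, only 35592001 was called for H3K27ac in F123 besides 35304001, and only 35304001 in J1.

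Annotated RNA starts in the desert were set beside the marks. RefSeq promoters of 14 genes placed 17 start sites in the desert. Of these sites, 2 lay in a bin called for H3K4me3, those of Sox2 and of Gm38512 at 35304872 (6.09 times). In H3K27ac, 3 were called in F123 and 4 in J1: Sox2, Gm38512 (6.15 and 6.99), Gm38509 (10.2 and 5.35) and, in J1, Atp11b. These counts are too small to set against the shares of all desert bins. The Atp11b start lies at the end of the last bin, which stood at 2.84 times the mean in H3K4me3. Sequence past that bin was not counted, so its values do not describe the whole Atp11b promoter. The starts of Gm52623, Gm38505, Gm34599, Gm42205, Gm3143, Gm21388, Gm35255, 1700017M07Rik, Gm35425 and Gm6639 lay in bins called for neither mark.

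Motif matches were counted on both strands of mm9 in each bin. Spelled out, the octamer is ATGCAAAT, the Sox motif CATTGT, the Esrrb motif TCAAGGTCA, the Klf motif GGGTGTGG and the Stat motif TTCCNGGAA, which reads the same on both strands and was counted once. A composite of CATTGT, 0 to 3 bases and ATGCAAAT or ATGCTAAT overlaps the first motifs. Esrrb, Klf and Stat proteins and the Sox and octamer factors are regulators of the stem cell state. Esrrb letters occurred in 3 of the 14 bins of the deleted interval, in 6 F123 bins (4.88%, 1.81 to 10.3) and in 6 J1 bins (7.79%, 2.91 to 16.2), against 3.41% of all desert bins and 1.84% of all chromosome 3 bins. The 17 bases around the matches of windows 1 and 2 and of the Atp11b side occurred once on chromosome 3, and those in window 3 occurred 4 times.

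In the called bins of each line, the intervals of the motif shares held the share of the desert, Esrrb included. The exceptions were Klf in J1 and Sox in F123. Esrrb stood at 21.4% (4.66 to 50.8) in the 14 bins of the deleted interval. In J1 bins over 10 times the mean it stood at 13.6% (5.17 to 27.4). Both intervals lay above the 3.41% of the desert, while that of F123 bins over 10 times (3.21 to 17.7) held it. These sets are small and no test was made. They also overlap, since the Esrrb bins of the interval are all over 10 times the mean in both lines. Klf matches lay in 6.50% of F123 bins (2.85 to 12.4), against 5.98% of the desert and 4.99% of chromosome 3. In J1 they lay in 11 of 77 bins (14.3%, 7.35 to 24.1), and the deleted interval held 2. In J1 bins over 10 times the mean they lay in 13.6% (5.17 to 27.4), an interval that holds the share of the desert. Stat matches lay in 4.88% of F123 bins (1.81 to 10.3) and 5.19% of J1 bins (1.43 to 12.8), against 3.11% and 2.49%. Sox matches lay in 39.8% of F123 bins (31.1 to 49.1) and 39.0% of J1 bins (28.0 to 50.8), against 49.7% of the desert and 51.6% of chromosome 3. The octamer was in 3.25% (0.893 to 8.12) and 2.60% (0.316 to 9.07), against 7.72% and 9.43%, and neither the octamer, the Stat motif nor the composite occurred in the deleted interval. The composite occurred nowhere in the desert and in 27 bins of chromosome 3. Only exact letters were counted, so a site with a different base is missed, and absence here is not absence of binding. From published ChIP-seq, the study reports Oct4, Sox2 and Nanog at the deleted super-enhancer.

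RNA was measured on each strand as distinct alignments by their midpoint, scaled to the library's alignments on exons (CPM, the usual scaling of counts by library size). Of 3344 bin strands, 1701 held no alignment in any of the 4 libraries, and 273 held 5 or more in wild type. The Sox2 bins dominated, with 10667 plus-strand alignments in wild type (429 CPM), 2510 with the 129 allele deleted (46.9% of wild type, 44.9 to 49.0), 1088 with the CAST allele deleted (41.8%, 39.2 to 44.5) and 106 with both alleles deleted (4.23%, 3.46 to 5.12). Sox2 RNA was thus lower in each deletion library and lowest with both alleles deleted. The flanking genes changed less: Atp11b, a phospholipid flippase subunit, stood at 36.9, 30.6, 30.7 and 24.1 FPKM in the same order, and Dnajc19, a mitochondrial import protein, at 7.74, 10.4, 10.3 and 8.56.

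The deleted interval gave the first check of the labels. Its plus strand held 163 alignments in wild type, 108 with the 129 allele deleted, 16 with the CAST allele deleted and 7 with both deleted. On the CPM scale this was 6.55, 8.65, 2.63 and 1.20, so that the 129-deleted library stood at 132% of wild type (103 to 169) and the CAST-deleted library at 40.2% (22.4 to 67.3). The minus strand held 53, 34, 22 and 9, or 2.13, 2.72, 3.62 and 1.54 CPM. The deletion libraries stood there at 128% of the wild-type CPM (interval 80.6 to 200), at 170% (interval 98.4 to 284) and at 72.3% (interval 31.3 to 148). With the 129 allele deleted no fall was thus seen on either strand. The check cannot decide that label, because RNA of the intact allele is counted too. The library with both alleles deleted had 16 alignments inside bases its label says are gone, in 5 bins. Their lengths were 35 to 92 bp, with a median of 45.5 bp. At the wild-type rate 38.3 plus and 12.5 minus alignments would have been seen over the interval. Most of the 16 lay in bin 34659001 (4 plus and 2 minus) and bin 34662001 (2 plus and 4 minus). The latter, the least mappable bin of the interval, held 32, 17, 12 and 4 minus-strand alignments in the 4 libraries. The summed fibroblast markers were highest in the library with both alleles deleted, and their part in its counts was not tested.

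Plus-strand RNA rose inside the deleted interval and ran out past its 3′ end. In the first 10 kb of the interval the plus strand held 50 alignments in wild type, 28 with the 129 allele deleted, 8 with the CAST allele deleted and 5 with both (112%, 65.5% and 42.6% of wild type in CPM). In the last 2962 bases, the stretch of window 4, it held 113, 80, 8 and 2 (141%, 28.99% and 7.53%). Between the end of the interval and the RefSeq start of Gm38509 at 34670997 it held 253, 130, 2 and 0. The 129-deleted library therefore stood at 102% of wild type over this stretch (82.3 to 127), and the CAST-deleted library was at 3.24% (0.390 to 11.8). With both deleted a count of 0 allows up to 3 alignments (a one-sided 95% limit), or 0.513 CPM, against 10.2 CPM in wild type. RefSeq places the start of Gm38509 5692 bp after the interval. Before that start, wild-type plus-strand RNA rose from 24 alignments in bin 34663001 to 55 and 81 in the following bins. Bin 34666001 held 65. In its discussion the study states that part of the deleted region covers the 5′ end of Peril. It adds that deleted alleles lost this transcript, without showing the data.

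Past the Gm38509 start the 129-deleted library fell below wild type, though not in the first bins. Over the next 12 kb wild type held 211 plus-strand alignments (8.48 CPM), the 129-deleted library 21 (1.68 CPM, 19.8% of wild type, 12.03 to 31.1), the CAST-deleted library 8 (15.5%) and the library with both deleted 0. Of these, bins 34673001 to 34675001 held 23, 17 and 20 in wild type and none in the 129-deleted library, and bins 34678001 to 34681001 held 7, 14, 33 and 24 against none. Bins 34671001 and 34672001, directly past the start, held 20 and 6 in wild type and 11 and 4 in the 129-deleted library. Bin 34670001, nearly all of it before the start, held 29 against 3. From 12 to 30 kb past the start the counts were 79, 24, 15 and 16 (60.6%, 77.7% and 86.2% of wild type). The point of division was chosen after these values were seen. The deposited alignments do not name the allele, so the RNA of each allele was not analysed here.

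**Figure D4:**
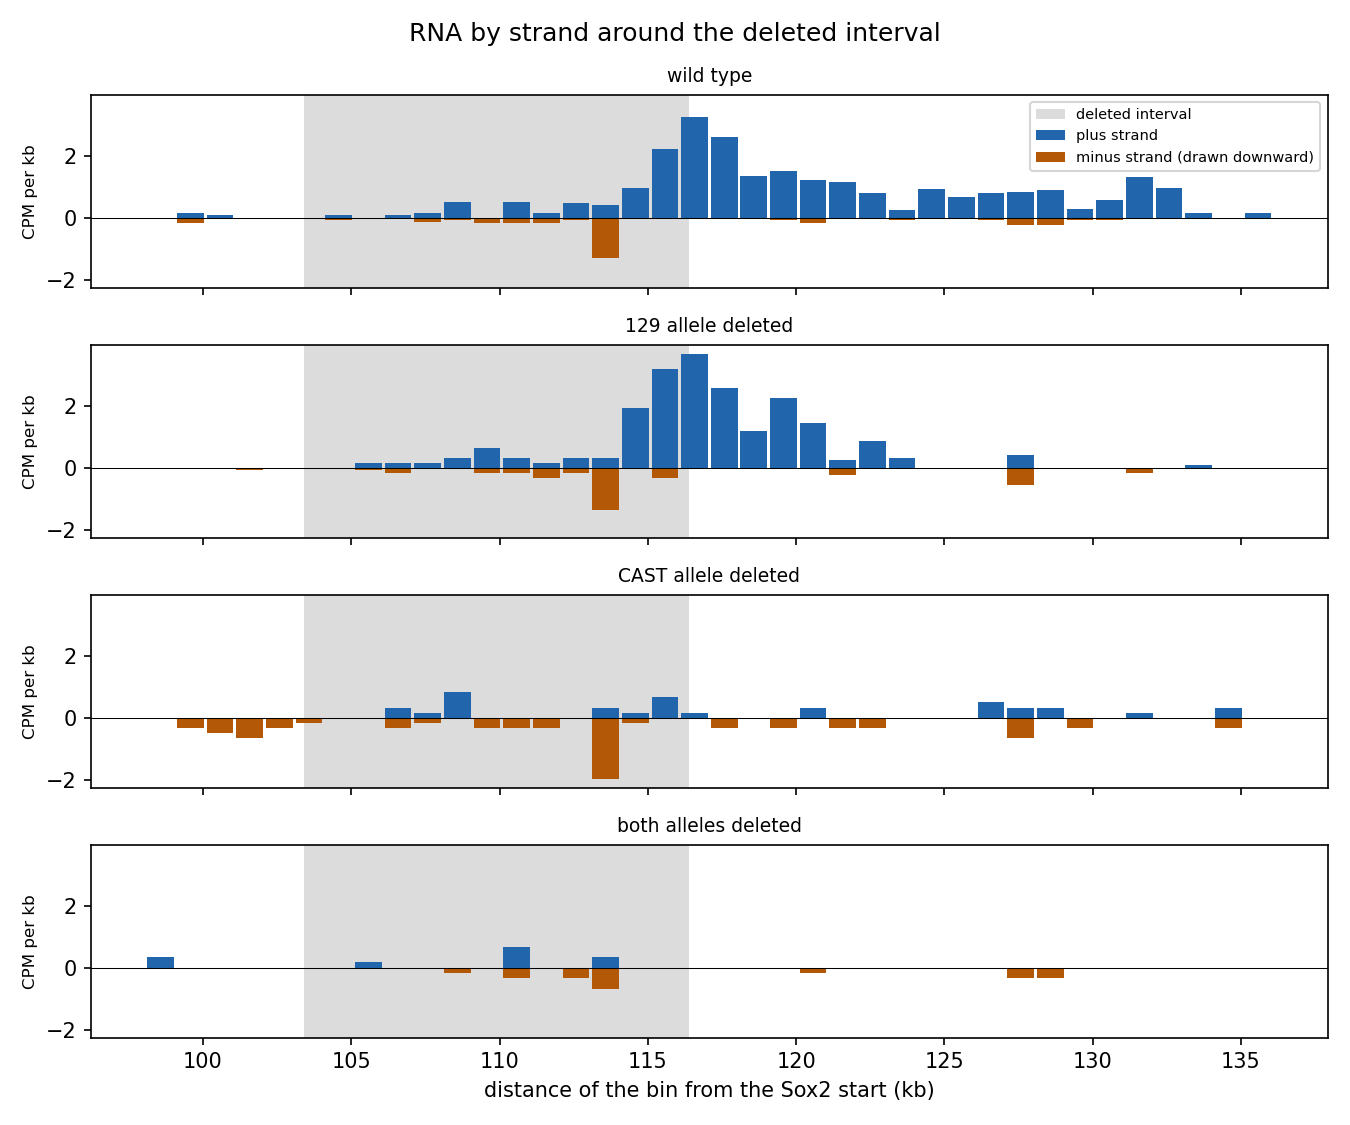
CPM for each 1 kb bin around the deleted interval (grey), plus strand upward and minus strand downward, in the 4 RNA libraries, by distance from the Sox2 start in kb. Plus-strand RNA peaks at the 3′ end of the interval in wild type and with the 129 allele deleted, continues beyond 124 kb in wild type, and is nearly absent from the other libraries.

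Across all bin strands with 20 or more wild-type alignments, low values in the deletion libraries were common, in the desert and elsewhere. Of 67 such bin strands, 26 were lower than wild type by 3-fold or more with the 129 allele deleted (38.8%), 34 with the CAST allele deleted (50.7%) and 47 with both deleted (70.1%). Without the Sox2 bins they were 25, 33 and 42 of 62. Neighbouring bins of 1 RNA were counted separately, and many of the low ones adjoin in blocks described below. On chromosome 3 outside the desert, counted in the same way, the shares were 22.6%, 24.8% and 26.3%. Most desert bins hold no exon, and among outside bins without exons the shares were 47.8%, 48.6% and 55.4%, against 44.6%, 55.4% and 66.1% of the 56 desert bin strands without exons. Among bins more than 10 kb from genes they were 50.4%, 51.3% and 59.9%. Outside bins without exons were thus themselves often low, and no test of the difference was made. At 3 times wild type or higher there was 1 desert bin strand with the 129 allele deleted and none in the others, against 0.347%, 0.822% and 1.12% outside. Since wild type sets which bin strands are used, values below wild type are favoured everywhere. With bin strands chosen instead by a mean of 0.8 CPM or more over the 4 libraries, a filter added after seeing the data, 3, 8 and 13 of 36 were lower by 3-fold or more, in the order 129, CAST, both.

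Adjoining bin strands with 5 or more wild-type alignments were joined into 91 blocks, and the 10 with most wild-type alignments differed in kind. Wild type alone drew and ranked the blocks, so values below wild type are favoured in them. The largest was Sox2. The second, plus strand from 35312001 to 35318000, held 4068, 1035, 708 and 482 alignments (163, 82.9, 116 and 82.4 CPM), but on average 8.57% of its windows were unique and it held 11 J1 and 2 F123 H3K27ac alignments. Alignments in sequence of this kind cannot be placed with confidence. The blocks at 35023001 to 35031000 on the minus strand (178, 31, 12 and 17, with the deletions at 34.7%, 27.6% and 40.7% of wild type) and at 35606001 to 35615000 on the plus strand (111, 96, 16 and 50, at 172%, 59.0% and 192%) were likewise 14.7% and 23.9% unique. The 129 bins under 50% unique held 25.5% of the wild-type RNA of the desert in 7.72% of its bins.

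Among these 10 blocks, leaving out those on Sox2, 3 on the plus strand had the lowest shares of wild type in the library with both alleles deleted. The block from 34657001 to 34682000, described above, held 615, 252, 23 and 6 alignments (4.15% of wild type with both deleted, 1.52 to 9.09). The block from 34574001 to 34591000, over the end of Sox2ot and beyond it, held 272, 100, 23 and 11 (73.3%, 34.6% and 17.2% of wild type). The exons of Sox2ot as a whole held 144, 58, 22 and 6 alignments (0.676, 0.543, 0.423 and 0.120 FPKM).

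The third of these blocks lay next to Dnajc19, at the end of the desert farthest from the deletion on the 5′ side. It ran on the plus strand from 33981001 to 34001000, away from Dnajc19, which is read on the minus strand. It held 607 alignments in wild type, 21 with the 129 allele deleted, 14 with the CAST allele deleted and 4 with both (24.4, 1.68, 2.30 and 0.684 CPM). Its bins were joined because they held 5 or more in wild type. The highest were 33984001 (79) and 33985001 (91), and no bin exceeded 8 in a deletion library. The deletion libraries thus stood at 6.90% (4.24 to 10.6), 9.44% (5.13 to 16.0) and 2.81% (0.762 to 7.22) of wild type. All 3 were low here, and no bin of the block was called for H3K27ac or H3K4me3. Wild type is 1 library, and its preparation and the undeleted genotype cannot be told apart.

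**Figure D5:**
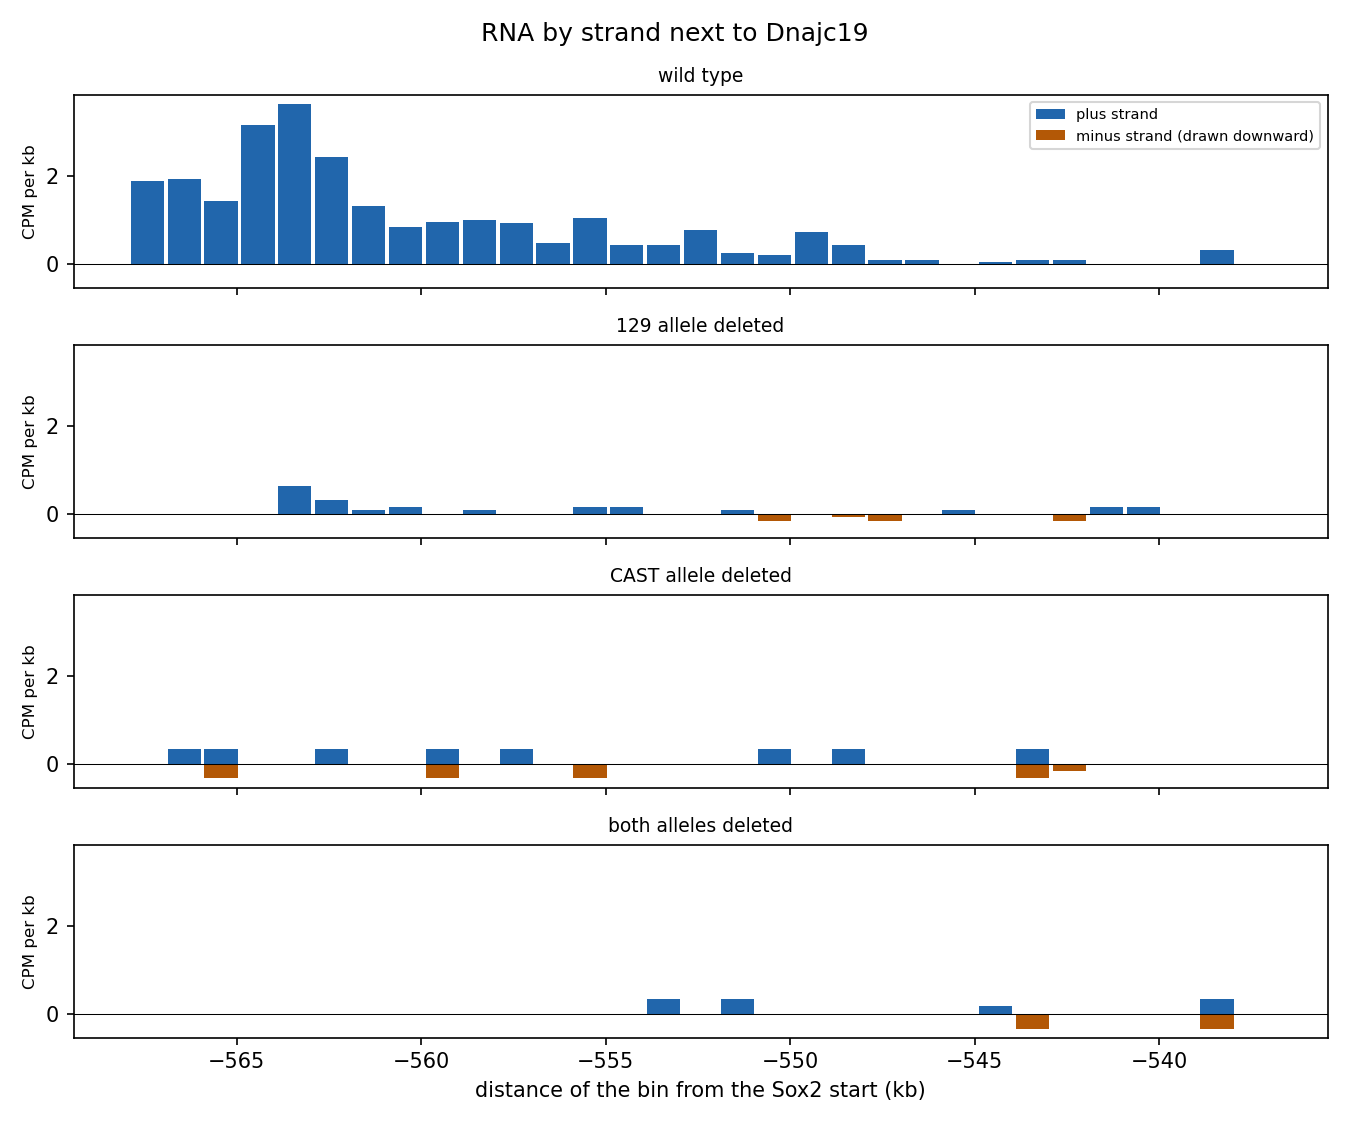
CPM for each 1 kb bin of the desert next to Dnajc19, plus strand upward and minus strand downward, in the 4 RNA libraries, by distance from the Sox2 start in kb. Wild type holds 607 plus-strand alignments in the first 20 bins, and the deletion libraries hold 21, 14 and 4.

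RNA at the Atp11b side differed between the strands and with the stretch counted. The minus-strand block from 35559001 to 35628000, which overlaps the H3K27ac domain there, held 615, 423, 170 and 55 alignments, that is 137% of wild type (121 to 155) with the 129 allele deleted, 113% (94.9 to 134) with the CAST allele deleted and 38.1% (28.3 to 50.2) with both. Within the J1 domain itself the minus strand held 155, 200, 68 and 29, or 257% of wild type (208 to 319), 180% (133 to 240) and 79.6% (51.6 to 119) in the deletion libraries. The plus strand there held 43, 44, 31 and 10, or 204% (131 to 318), 295% (180 to 480) and 98.997% (44.4 to 200). With both alleles deleted the domain was thus not distinguishable from wild type at this depth, whereas the longer block was lower. Bins of the rest of the desert with 50% or more unique windows, this domain included, gave a wider comparison. Their minus strand stood at 142%, 197% and 106% of wild type, and their plus strand at 76.4%, 96.0% and 48.0%. On the minus strand the interval of the CAST-deleted library held the wider 197%, so no rise over that value was seen. The other intervals of the single deletions lay above the wider values. The remaining blocks of the 10 were the minus strand of Sox2 (98, 11, 7 and 0, beside the far larger plus-strand counts) and the minus strand from 35523001 to 35528000 (88, 23, 16 and 8, at 52.1%, 74.5% and 38.7%).

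The 2 clusters that flank Sox2 had strong H3K27ac and almost no RNA. From 34538001 to 34548000 all 4 libraries were at 0 on both strands. From 34552001 to 34572000 wild type held 14 plus-strand alignments, all in the first bin, and none on the minus strand. The zeros were not particular to the clusters. All bins from 34532001 to 34547001 and from 34553001 to 34573001 were at 0 on both strands in all 4 libraries. These runs reach past the clusters into bins not called for H3K27ac. What makes them was not tested. The cluster at 34633001 to 34647000 held 16 plus and 47 minus in wild type, and 2 and 7 with both alleles deleted (53.2%, 5.94 to 226, and 63.4%, 24.2 to 141, of wild type). Across the 1654 bins of the rest, J1 H3K27ac and wild-type RNA of F123 had a Pearson r of 0.0103 and a Spearman rho of -0.0234. In the 1214 bins with 90% or more unique windows r was 0.222 and rho 0.0894. These values set the mark of one line against the RNA of another, and F123 H3K27ac was not correlated with RNA.

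Summed over the rest of the desert, RNA depended on the strand and on the bins counted. Wild type held 9005 alignments on both strands and the deletion libraries 75.8% (72.9 to 78.9), 97.9% (93.4 to 103) and 60.8% (57.3 to 64.5) of its CPM, in the order 129, CAST, both. On the plus strand these shares were 61.7% (58.8 to 64.8), 79.5% (74.9 to 84.3) and 51.0% (47.4 to 54.8), and on the minus strand 121% (113 to 129), 157% (145 to 170) and 92.3% (83.3 to 102). In bins with 50% or more unique windows both strands together stood at 102% (96.3 to 107), 134.9% (127 to 144) and 70.2% (64.5 to 76.4). There the plus strand was at 76.4%, 96.0% and 48.0%, and the minus strand at 142%, 197% and 106%. Outside the desert, with no filter on unique windows, bins of chromosome 3 without exons stood at 91.6%, 137% and 92.5%, and bins more than 10 kb from genes at 101%, 159% and 105%.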

How the data were processed

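The 1672 bins of the Sox2 desert and the motif, marker and gene lists were chosen with earlier results of these data known. The authors deposited aligned reads as BED files (mm9 build), 1 line for each distinct alignment with the counts of reads behind it. The paper's methods name Novoalign and USeq for RNA and refer to earlier work for ChIP-seq. Versions are not given in the sources used here. Of RNA alignments in the desert outside Sox2, 45.5% in wild type and 41.0%, 34.9% and 37.0% in the deletion libraries had a partner moved by 2 bp. What makes these pairs was not tested, and where a pair is 1 fragment the counting intervals for RNA are too narrow. RNA lies on the strand opposite to its alignment. Bins took 5′ ends (ChIP-seq) or midpoints (RNA). Fold is the count over the chromosome 3 mean over known bases. GENCODE M1 gave genes, RefSeq (GRCm38.p6, sequences only) promoters. Named regions were the bins of the deleted interval and Sox2, the 10 clusters with the highest F123 H3K27ac bin, every H3K4me3 cluster and the 10 RNA blocks with most wild-type alignments (bins of 5 or more, joined across gaps of up to 2 kb); others were named after their values were seen. Intervals are exact Poisson or binomial at 95%, computed with Python 3.11.15, numpy 2.4.6 and scipy 1.17.1. The calling rules and the Poisson intervals of ChIP-seq bins were tried on simulated independent counts. The binomial intervals were not, and the simulated counts held no pairs moved by 2 bp. Alternatives are given below. No sample was left out.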

Additional observations from a re-analysis of the deposited data

Results flagged for a closer look

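Plus-strand RNA of the bins of the deleted interval moved in opposite directions in both single-deletion libraries: over the 14 whole bins it stood at 129% of wild type (103 to 160) with the 129 allele deleted and at 29.8% (16.7 to 49.5) with the CAST allele deleted. It was picked out because the counting intervals lay on opposite sides of wild type. Each genotype is 1 library, the difference between them was not tested, and pairs of alignments moved by 2 bp may make these intervals too narrow.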

How the results depend on the processing

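Of 95 recomputed values 65 stayed within 1.5 times (counts) or inside the counting interval (values) of those reported. Called bins numbered 70 (F123 H3K27ac), 44 (J1) and 5 (H3K4me3) at 10 times the mean, and 224, 146 and 67 at 3 times. With the lower limit of the interval over 5 times the mean, F123 H3K27ac kept 52 and H3K4me3 7. Counting a J1 call in the bin or a neighbour raised the share of F123 bins found in J1 to 61.9%. Bin strands 3-fold or more below wild type, for both, 129 and CAST alleles deleted, numbered 92, 52 and 70 of 151 with 10 wild-type alignments or more, 11, 4 and 7 of 17 with 50 or more, and 13, 3 and 8 of 36 where the mean of the 4 libraries had to reach 0.8 CPM, a filter chosen after seeing the data; the filter on wild type thus moved these shares. Plus-strand RNA of the deleted interval became 3.66, 4.84 and 5.14 CPM in wild type with all reads, a library size from all alignments, and alignments moved by 2 bp counted once (also added later), and 5.29, 6.59 and 6.81 with the 129 allele deleted. Minus-strand RNA became 0.970, 1.57 and 1.57 CPM in wild type, 1.75 (all reads) and 1.84 (counted once) with the 129 allele deleted, and 2.14 (counted once) with the CAST allele deleted. No paired analysis was possible because each condition is 1 library, and for the same reason no library could be left out. Depth limits the F123 H3K27ac bins and the RNA of both CAST-deleted and doubly deleted cells most.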
